A study of Caenorhabditis elegans with 12 samples.

Results

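The cat-1 mutant of Caenorhabditis elegans was compared with the wild-type strain N2 for its microRNAs, the short RNAs that bind messenger RNAs through a seed near their 5′ end and lower their output. CAT-1 is the vesicular monoamine transporter of the worm, which loads dopamine, serotonin and other monoamines into synaptic vesicles, so that its loss lowers monoamine release while the neurons themselves remain. The mutant was strain CB1111 with the loss-of-function allele e1111, and N2 carries no such mutation. All worms were fed OP50 bacteria at 20 °C, synchronized and taken whole at larval stage 4. Small RNA under 200 nt of the mutant and of N2 was hybridised together on 2-colour arrays, the mutant labelled Alexa Fluor 5 and N2 Alexa Fluor 3 on every array. Dyes were not swapped, so a dye bias of a probe and a change in the mutant cannot be told apart. The labels describe 4 worm populations per strain and 4 N2 preparations. The 4 cat-1 samples were chosen by that label from 12 in the series. The other 8 are 4 of a strain transgenic for human alpha-synuclein A53T, whose promoter the labels do not give, and 4 of VC1024, a loss-of-function mutant (gk448) of the parkin gene pdr-1, each set against N2. The array measures no messenger RNA, so the cat-1 lesion could not be checked. In RNA from whole worms, fewer cells of a type and less RNA per cell cannot be told apart.

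Replicates 3 and 4 of the mutant had identical scanner values at 4608 of 4608 spots and were counted as 1 array, called replicate 3. That leaves 3 distinct cat-1 arrays. Each held 114 C. elegans probes of 3 spots. The ratio of the 2 signals was taken as mutant over N2, the likely direction, since the labels name N2 as channel 1 and the mutant as channel 2. A log2 ratio needs a signal in both channels, and 36, 54 and 30 probes gave one on replicates 1, 2 and 3. In all, 38 probes had a ratio on at least 2 arrays and were tested, 20 had one on a single array, 2 had a signal in 1 channel only, and 54 had no signal on any of the 3 arrays. Blank positions also held a signal: 15 to 18 of 1059 blank spots on the cat-1 arrays, against 0 to 3 on the other strains' arrays. Precision is limited throughout by the number of arrays.

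In the cat-1 mutant 4 of 38 tested microRNAs were higher than in N2 and 0 were lower, which is 10.5% of those tested (limma on the 3 arrays alone, Benjamini-Hochberg adjusted p under 0.05). If the channels ran the other way, these would be 0 higher and 4 lower, and every sign given here would turn. The 4 were miR-58, miR-72, miR-71 and miR-241. They do not rest on the same amount of data. miR-58 was measured at all 9 of its spots, and each of the other 3 at 1 spot on each of 2 arrays. At an unadjusted p under 0.05 there were 6, and the 2 further ones, miR-64 and miR-65, were on the lower side.

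miR-58, a relative of the fly microRNA bantam and one of the most abundant microRNAs of the worm, known to restrain TGF-beta signalling, was the best measured of the 4. Its signal in the cat-1 mutant was 1.94, 1.61 and 1.49 MU (scanner units with the prefix mega) on replicates 1, 2 and 3, against 0.628, 0.646 and 0.621 MU in N2. The 3 mutant signals all lie above the 3 N2 signals, although the scanner signals of the 2 channels are not on the same scale before normalization. The median unnormalized log2 ratio of all C. elegans spots was 0.88, 0.79 and 0.17 on these arrays, so that part of the raw gap is shared by most microRNAs. After loess normalization within each array the log2 ratio of miR-58 was 0.86, 0.61 and 1.07. Its 9 single spots ranged from 0.38 to 1.37, all above 0. miR-58 was 1.79-fold higher in the mutant (log2 change 0.84 ± 0.24 SE, n = 3 arrays, limma adjusted p = 0.0155).

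**Figure D1:**
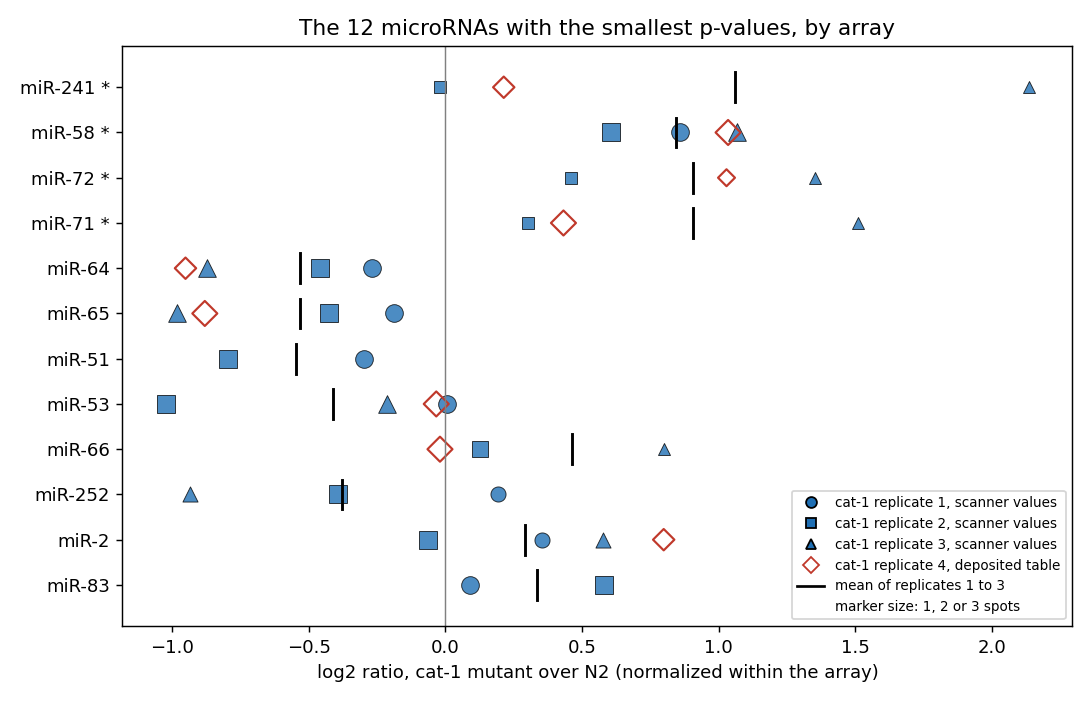
Log2 ratio of the cat-1 mutant over N2 (x axis) for the 12 microRNAs with the smallest p-values, 1 row each, with filled markers for the 3 distinct arrays, open diamonds for replicate 4 as the authors' deposited table gives it, a black bar for the mean of replicates 1 to 3 and a star for those past the threshold. Marker size grows with the spots behind a value. miR-58 has large markers from 0.61 to 1.07, while the mean of miR-241 lies between small markers at -0.02 and 2.14.

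The call of miR-58 did not hold under every alternative. limma gave all 38 microRNAs the same SD of 0.42 in log2 units, wider than the SD of miR-58 itself (0.23), and the call was lost without replicate 1 (0.84, adjusted p = 0.102), without replicate 2 (0.96, adjusted p = 0.265) and with a wider loess span of 0.7 (0.83, adjusted p = 0.197). It was also lost with 1 spread over all strains (adjusted p = 0.318) and with a plain test that shares no SD (adjusted p = 0.667). It held without replicate 3, at 0.73 (adjusted p = 0.0175). An exact sign-flip test over 3 arrays cannot go below p = 0.25 two-sided, which is the value it gave.

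miR-72, whose family includes miR-73 and miR-74, was measured at 1 of 3 spots on replicates 2 and 3 and at 0 spots on replicate 1. The mutant signal was 2.78 and 1.25 MU on those arrays, against 1.15 and 0.395 MU in N2. The normalized log2 ratios were 0.46 and 1.35, with a mean of 0.91 ± 0.29 SE (n = 2 arrays, limma adjusted p = 0.0285), or 1.88-fold higher in the mutant. Both arrays lie above 0, and replicate 3 is the higher of the pair.

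miR-71, expressed in neurons and other tissues and known to lengthen lifespan, had the same pattern. Its single usable spots gave 0.272 and 2.10 MU in the mutant on replicates 2 and 3, against 0.0715 and 0.586 MU in N2. The normalized log2 ratios were 0.30 and 1.51, with a mean of 0.91 ± 0.29 SE (n = 2 arrays, limma adjusted p = 0.0285). The unnormalized log2 ratios were 1.93 and 1.84, so that the arrays differed mainly after loess. With median centring in place of loess the mean was 1.40.

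miR-241, a relative of let-7 that acts with miR-48 and miR-84 in early larval timing, had the mean farthest from 0 among the 38, in either direction, and the widest SD between arrays. The mutant signal was 1.96 and 1.37 MU on replicates 2 and 3, against 1.12 and 0.262 MU in N2. The normalized log2 ratios were -0.02 and 2.14, so 1 of 2 arrays was above 0. The mean of 1.06 ± 0.29 SE passed (n = 2 arrays, limma adjusted p = 0.0155) under the shared SD of 0.42, which is narrower than the SD of 1.52 between its own 2 values. With a robust prior it no longer passed (adjusted p = 0.795), and miR-58, miR-71 and miR-72 did. Without replicate 1, which measured none of the 3, limma gave adjusted p = 0.0716 for miR-241 and 0.0794 for both miR-71 and miR-72. Without replicate 2 or replicate 3 each of the 3 had 1 array left and could not be tested.

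On the lower side, miR-64 and miR-65 were as fully measured as miR-58, at 9 of 9 spots each. They belong to the miR-63 family and are neighbours of miR-66 and miR-229 in the gene table. miR-64 gave 1.86, 0.556 and 0.795 MU in the mutant, against 1.27, 0.468 and 1.30 MU in N2. Before normalization the mutant signal is thus above N2 on replicates 1 and 2, and the ratio is below 0 there only relative to the other microRNAs. The normalized log2 ratios of miR-64 were -0.27, -0.46 and -0.87, with a mean of -0.53 ± 0.24 SE (n = 3 arrays, limma adjusted p = 0.191).

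miR-65 gave 0.597, 0.605 and 1.17 MU in the mutant, against 0.396, 0.501 and 2.28 MU in N2. The normalized log2 ratios were -0.19, -0.42 and -0.98, with a mean of -0.53 ± 0.24 SE (n = 3 arrays, limma adjusted p = 0.191). Without replicate 3 the mean was -0.31 for miR-65 and -0.36 for miR-64 (adjusted p = 0.52 for both). Both microRNAs lay below 0 on 3 of 3 arrays and were lowest on replicate 3. Without normalization within the array the mean was 0.03 for miR-64 and -0.03 for miR-65, beside a median of 0.75 over the tested microRNAs. The other strains also averaged below N2: miR-64 at -0.58 in alpha-synuclein and -0.32 in pdr-1, miR-65 at -0.29 and -0.31. In the contrast of cat-1 with both, the difference was -0.08 ± 0.37 SE for miR-64 and -0.23 ± 0.33 SE for miR-65. A change of either particular to the cat-1 mutant was therefore not shown.

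Requiring at least 2 usable spots per array changed which microRNAs passed. With that rule 30 microRNAs were tested and 3 passed (10%), 1 higher and 2 lower: miR-58 at 0.84 (limma adjusted p = 0.000165), miR-64 at -0.53 (adjusted p = 0.0221) and miR-65 at -0.53 (adjusted p = 0.0221). miR-72, miR-71 and miR-241 could not be tested under it, since none had 2 such arrays. miR-58, miR-64 and miR-65 were also the calls when only probes with a ratio on all 3 arrays were tested (24 microRNAs). The same 3 passed when each value was weighted by its number of spots, an alternative chosen after seeing the data. Under the rule of 2 spots the means of miR-64 and miR-65 did not change. The shared SD was 0.28 there, against 0.42 in the main fit, and was narrower than their own SDs of 0.31 and 0.41.

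The values behind this are the spots. Of the probes with a ratio, 6 of 36 on replicate 1, 11 of 54 on replicate 2 and 14 of 30 on replicate 3 rested on 1 spot. Among the tested microRNAs, 8 had 9 usable spots and a pooled SD between arrays of 0.30, and 5 had 1 spot on every array that measured them and a pooled SD of 0.83. The group of 5 did not spread alike: the SD was 1.52, 0.86 and 0.63 for the called miR-241, miR-71 and miR-72, and 0.14 and 0.11 for miR-228 and miR-54, which did not pass. Spots of the same probe on the same array varied by a pooled SD of 0.26, 0.23 and 0.38 on replicates 1, 2 and 3, over probes with 3 usable spots.

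**Figure D2:**
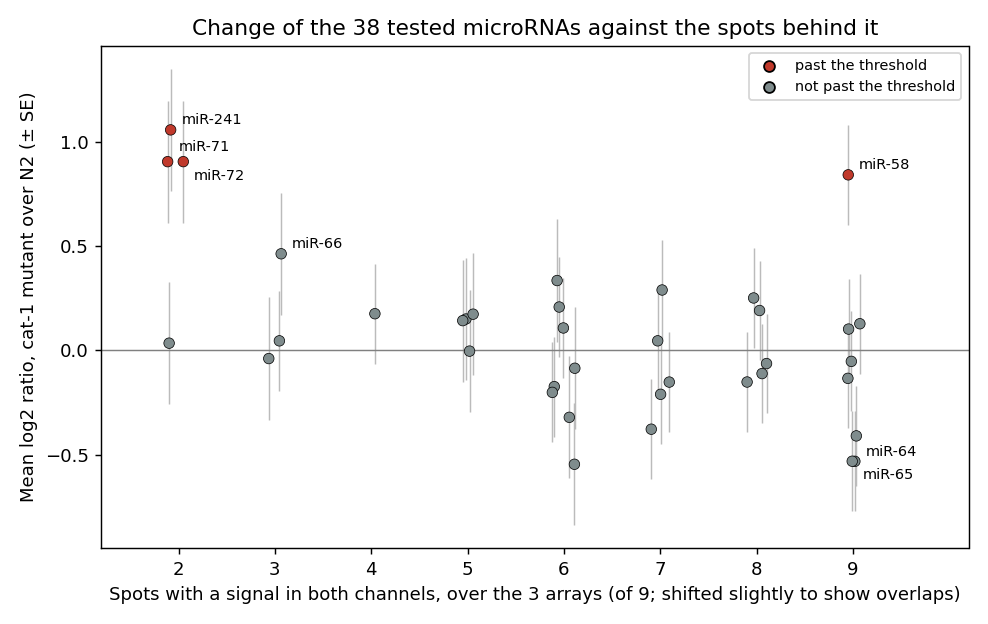
Mean log2 ratio of the cat-1 mutant over N2 with its standard error (y axis) against the number of usable spots over the 3 arrays (x axis) for the 38 tested microRNAs, in red where the threshold was passed. miR-241, miR-71 and miR-72 lie at 2 spots, and miR-58, miR-64 and miR-65 at 9.

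The authors' deposited table holds values for cat-1 replicate 4 that its scanner file does not. For replicates 1, 2 and 3 the deposited log2 ratios lie within 0.001 of the scanner ratios plus 1 constant at 91 of 91, 126 of 126 and 57 of 57 spots. For replicate 4 the table gives 68 spots, of which 39 have a ratio in the scanner file, and over these the 2 correlated at 0.60. No other scanner file or deposited column of the series matched it either, since at most 3 spots differed by the same constant. Its scale, centring and direction could not be checked, and its place among the cat-1 arrays rests on its label. It correlated at 0.56, 0.33 and 0.57 with cat-1 replicates 1, 2 and 3 (21, 33 and 22 microRNAs), and at 0.49 and 0.60 with alpha-synuclein replicates 1 and 2 (30 and 32 microRNAs). With the other 6 arrays of those strains it ranged from -0.86 (8 microRNAs) to 0.36 (31 microRNAs). These values are a description and do not settle which strain the column holds.

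In the authors' deposited table, replicate 4 gave a log2 ratio of 1.03 for miR-58, with its 3 spots at 1.22, 0.90 and 0.98. It gave 1.03 for miR-72 at 1 spot, 0.43 for miR-71 over 3 spots and 0.21 for miR-241 over 2 spots. The 3 spots of miR-71 were at -0.01, 0.18 and 1.12, so that its mean rests largely on 1 spot. All 4 microRNAs lie above 0, but so does the median of the 33 probes with a value in that column (0.18), and miR-241 lies near it. In that table the other replicates averaged 0.82 for miR-58, 1.04 for miR-72, 1.25 for miR-71 and 1.17 for miR-241, so replicate 4 was above that mean for miR-58, about at it for miR-72 and below it for miR-71 and miR-241. miR-64 stood at -0.95 over 2 spots and miR-65 at -0.88 over 3 spots, both below their mean over the other replicates. Of 26 tested microRNAs with a replicate 4 value in the authors' deposited table, 17 had the sign of the mean of replicates 1 to 3.

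**Figure D3:**
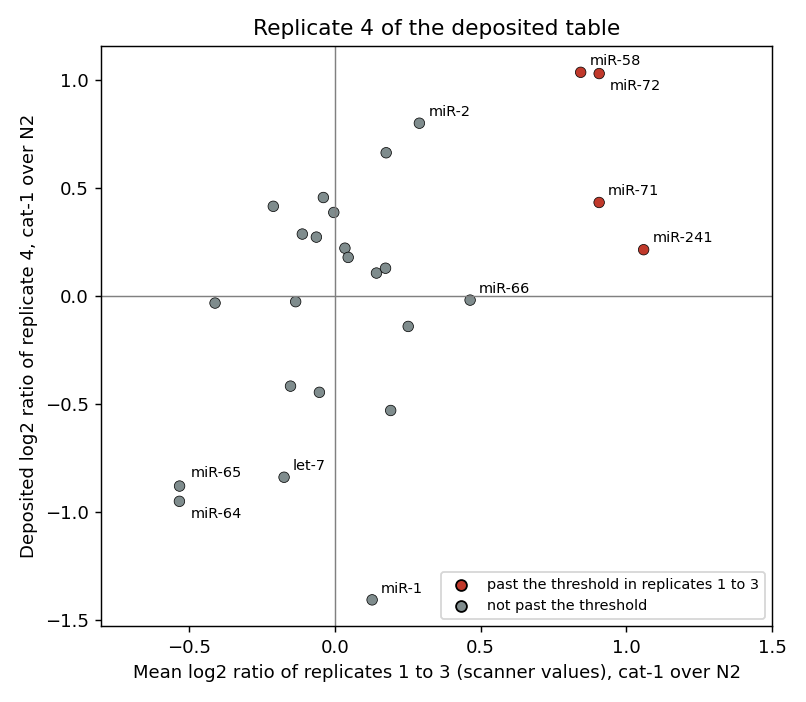
Log2 ratio of cat-1 replicate 4 in the authors' deposited table (y axis) against the mean log2 ratio of replicates 1 to 3 from scanner values (x axis), 1 point for each of 26 microRNAs, in red where the mean passed the threshold. miR-58 and miR-72 lie at the upper right, miR-64 and miR-65 at the lower left, and miR-1 lies at -1.41 in replicate 4.

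Fitted on all 4 columns of the authors' deposited table, 45 microRNAs were tested and 7 passed (15.6%), 5 higher and 2 lower. These were miR-72 (1.04), miR-58 (0.87), miR-71 (0.97), miR-241 (0.85) and miR-233 (0.95, on 2 columns) on the higher side, and miR-65 (-0.68) and miR-64 (-0.65) on the lower side, with limma adjusted p-values from 0.000605 to 0.00859. With at least 2 spots per column, also chosen after seeing the data, 4 of 35 passed (11.4%): miR-58 (0.87, adjusted p = 6.39e-05), miR-65 (-0.68, adjusted p = 0.00204), miR-64 (-0.65, adjusted p = 0.00246) and miR-236 (0.73, adjusted p = 0.024). miR-71 was tested there on 2 columns and did not pass (0.61, limma adjusted p = 0.0861). Without replicate 2 the limma fit of the authors' deposited table gave 0 calls of 33 tested (6 with an unadjusted p under 0.05), without replicate 3 it gave 6, and without replicate 1 it gave 7. Without replicate 3, miR-241 stood at 0.15 (limma adjusted p = 0.746) and miR-71 at 0.61 (adjusted p = 0.0722) in the authors' deposited table, and neither passed. Without replicate 4, the column that could not be checked, the fit gave 5 calls, all higher, and both lower calls were lost, with miR-65 at -0.62 (adjusted p = 0.0966) and miR-64 at -0.55 (adjusted p = 0.155). In the authors' deposited table miR-58 lay above 0 on 4 of 4 columns and miR-64 and miR-65 below 0 on 4 of 4. For each of them an exact two-sided sign-flip test gives p = 0.125, its smallest value. Among microRNAs that did not pass, miR-53, miR-52 and miR-80 also lay below 0 on 4 of 4 columns, and miR-81 above 0. A single sign on all 4 columns was thus not particular to the microRNAs that passed.

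The let-7 family times larval stages, and its members rise towards adulthood. All 4 members on the array were tested, and 1, miR-241, passed. let-7 gave log2 ratios of -0.33, 0.05 and -0.24 on replicates 1, 2 and 3, miR-48 gave -0.17, 0.01 and -0.17, and miR-84 gave -0.01, 0.25 and 0.33. Their means were -0.17, -0.11 and 0.19 with limma adjusted p = 0.848 for each, and the median of the family was 0.04, the same as the median of all 38 tested microRNAs. miR-48 is the neighbour of miR-241 in the gene table and was measured at 8 spots. In the authors' deposited table, replicate 4 gave -0.84 for let-7 at 1 spot, -0.53 for miR-84 and 0.29 for miR-48.

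In the miR-58 family, whose members share their seed with bantam, 1 of 4 tested members passed. miR-80 gave -0.23, -0.21 and -0.02 on replicates 1, 2 and 3, with a mean of -0.15. miR-81, measured at 4 spots, averaged 0.18 and miR-82 averaged -0.06, and the median of the family was 0.06. These 3 had limma adjusted p-values of 0.848, 0.848 and 0.92. The fully measured miR-58 thus lay above its 3 relatives on each of the 3 arrays.

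In the miR-63 family and its cluster, 0 of 5 tested members passed and the median was -0.15, with 4 of 5 below 0. miR-66 differed in sign from its neighbours miR-64 and miR-65, with log2 ratios of 0.13 and 0.80 on replicates 2 and 3 and a mean of 0.46 (limma adjusted p = 0.455). It stood at 0.85 with median centring (adjusted p = 0.0505), and passed at 0.90 with the arrays scaled by summed signals (adjusted p = 0.0251) and at 0.90 in columns 1 to 3 of the authors' deposited table (adjusted p = 0.0308). It rests on 3 spots, and the deposited replicate 4 stood at -0.02 over 3 spots in the authors' deposited table. miR-229, the fourth of the cluster, had 9 spots and gave -0.24, 0.13 and -0.05. miR-63 averaged -0.15.

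The miR-51 family, needed in the embryo for the attachment of the pharynx, had 6 tested members, 0 past the threshold and a median of -0.17. miR-51 was measured at 6 spots and gave -0.30 and -0.79 on replicates 1 and 2, with a mean of -0.55 (limma adjusted p = 0.365). miR-53, with 9 spots, gave 0.01, -1.02 and -0.21, so its mean of -0.41 (adjusted p = 0.436) comes mostly from replicate 2. miR-52 averaged -0.13, miR-54 0.05, miR-55 0.14 and miR-56 -0.20.

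**Figure D4:**
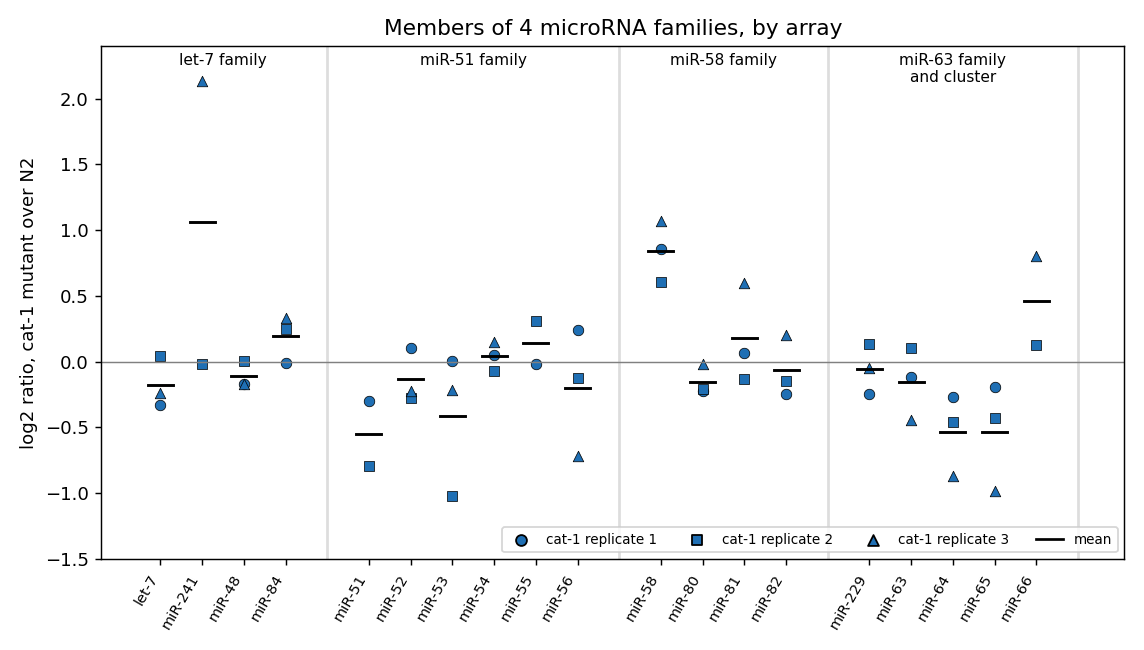
Log2 ratio of the cat-1 mutant over N2 (y axis) for the tested members of 4 microRNA families (x axis), with 1 marker per array and a bar for the mean. miR-58 lies from 0.61 to 1.07 while its relatives lie from -0.25 to 0.60, and miR-241 alone reaches 2.14.

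Of the lists for neurons and glia and for muscle, 3 microRNAs were tested (miR-79, miR-228 and miR-1) and 0 passed; miR-71, which neurons also express, stands in another list. miR-124, of sensory neurons, was measured on replicate 2 alone, at 0.33 over 2 spots, and lsy-6, which makes the left and right ASE taste neurons differ, had no signal. miR-79, a relative of the neuronal miR-9, gave 0.43, 0.17 and 0.16 on replicates 1, 2 and 3, with a mean of 0.25 (limma adjusted p = 0.806). miR-228, expressed in glia, averaged 0.03 on 2 arrays. miR-1, the conserved muscle microRNA that tunes acetylcholine receptors at the neuromuscular junction, had 9 spots and gave 0.01, 0.35 and 0.02, with a mean of 0.13 ± 0.24 SE (adjusted p = 0.848). Replicate 4 of the authors' deposited table stood at -1.41 for miR-1, outside the range of the other replicates.

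Of the stress and lifespan microRNAs, 3 of 7 were tested and miR-71 was the 1 that passed. lin-4, which times early larval fates, averaged -0.04 on 2 arrays and miR-239a 0.11 on 3, with limma adjusted p-values of 0.93 and 0.848. miR-34, miR-239b and miR-246 had no signal, and miR-238 stood at -0.57 on replicate 2 at 1 spot. Of 8 probes of the miR-35 family, which marks embryos, 1 held a signal, miR-37 at 1 spot of replicate 1.

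The smaller families had 1 tested member each. miR-2 gave 0.36, -0.06 and 0.58 on replicates 1, 2 and 3, with a mean of 0.29 (limma adjusted p = 0.796), and it is the neighbour of miR-71 in the gene table. miR-87 averaged 0.17, the probe shared by miR-44 and miR-45 averaged 0.15, and miR-46 stood at 0.00, with adjusted p-values of 0.848, 0.848 and 0.991. miR-83, a relative of miR-29, averaged 0.34 on 2 arrays (adjusted p = 0.806). miR-252 gave 0.19, -0.39 and -0.94, with a mean of -0.38 (adjusted p = 0.455), and so changed sign between arrays. The members of the miR-72, miR-44, miR-46, miR-75, miR-87 and miR-238 families that were not tested had a ratio on 1 array or none. A further 6 tested microRNAs, in no list, had means from -0.32 to 0.21.

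Over all 38 tested microRNAs, 20 had a mean above 0 and 18 below 0, and the 34 that did not pass ranged from -0.55 to 0.46. On every array that measured them, 9 lay above 0 (23.7%) and 5 below 0 (13.2%). The 20 microRNAs with a ratio on a single array ranged from -0.87 to 0.64, with 16 of them measured on replicate 2, and 10 rested on 1 spot. The log2 ratios of arrays correlated at 0.29 for replicates 1 and 2 (33 microRNAs), 0.46 for replicates 1 and 3 (24) and 0.49 for replicates 2 and 3 (29). Over microRNAs with at least 2 spots on both arrays these were 0.30 (30 microRNAs), 0.60 (16) and 0.66 (16). These are descriptions across microRNAs, which are not independent and share probes and dye orientation.

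In the comparison with the other 2 strains, which removes a dye bias shared by all arrays, 31 microRNAs were tested over 11 distinct arrays. The limma contrast gave 0 calls (0%), and 0 had an unadjusted p under 0.05 (cat-1 minus the mean of the alpha-synuclein and pdr-1 strains). The smallest adjusted p was 0.632, shared by the first 5. miR-51 averaged -0.55 in cat-1 and 0.40 in the other strains (difference -0.95 ± 0.47 SE), miR-66 0.46 and -0.44 (0.90 ± 0.46), and miR-58 0.84 and 0.16 (0.68 ± 0.37). let-7 averaged -0.17 in cat-1 and -0.92 in the others (0.74 ± 0.42), and miR-48 -0.11 and -0.78 (0.67 ± 0.39). For miR-58, the 3 cat-1 ratios lay from 0.61 to 1.07, those of pdr-1 from -0.25 to -0.01, and those of alpha-synuclein from -0.52 to 1.04. A change of miR-58 particular to the cat-1 mutant was therefore not shown. The same holds for the other 3 calls. miR-241 averaged 1.06 in cat-1, -0.63 in alpha-synuclein and 1.14 in pdr-1 (difference 0.80 ± 0.56 SE). miR-72 averaged 0.91, 0.74 and -0.02 in these strains (0.54 ± 0.43), and miR-71 averaged 0.91, 0.43 and 0.36 (0.51 ± 0.50).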

How the data were processed

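The authors deposited scanner files with a signal intensity and a flag letter per spot and channel, per the file headers, and a value table of log2 ratios. There is no background column, and neither the background step nor what each flag letter means is given in the sources used here. A signal was one above 0, and spots flagged S were left out. For each cat-1 array the log2 ratio of the second over the first signal was normalized by a loess curve (span 0.3, 4 iterations) through the C. elegans spots, and the spots of a probe were averaged. Probes with a ratio on at least 2 distinct arrays were tested against 0 with limma 3.58.1 in R 4.3.3, on the cat-1 arrays alone, two-sided, with Benjamini-Hochberg adjustment at 0.05. No array compared N2 with N2. limma estimated infinite prior degrees of freedom, and thus 1 SD for all microRNAs. The contrast with the other strains used all 11 distinct arrays and probes with a ratio on at least 2 arrays of each strain.

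The authors' log2 ratios of the deposited table were averaged per probe and fitted in the same way, except that spots flagged S were kept. Column medians of that table were -0.03, 0.08, 0.03 and 0.13 for cat-1 replicates 1 to 4. Its scale is log2, its direction second over first signal and its centring 1 constant per array for replicates 1 to 3, and all of these are unknown for replicate 4. It holds 0 per-sample columns without a sample.

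The microRNAs named were those past the threshold, those that followed by p-value to make 12, and the tested members of 16 lists of families and tissues. Members and lists were chosen with earlier results of these data known. The WBcel235 gene table held a symbol for 106 of 114 probes and was used for neighbours within 10 kb. The steps were tested on simulated data. Alternatives concerned normalization, flags, spots, filters, the model, arrays left out and the deposited table. Centring on dye markers was not run, as 0 to 5 of 24 such spots had a ratio on the cat-1 arrays.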

Additional observations from a re-analysis of the deposited data

Results flagged for a closer look

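In 3 of the 32 named microRNAs every cat-1 array that measured them lay on the opposite side of 0 from every array of another strain. Each of the 32 was set against each other strain where both sides had at least 2 arrays. How many would fall this way by chance was not computed. miR-58 differed by 0.95 in log2 between the cat-1 mean (0.84) and the pdr-1 mean (-0.11), with 3 arrays each. miR-66 differed by 0.98 between cat-1 (0.46) and pdr-1 (-0.51), with 2 arrays each. miR-51 differed by -0.94 between cat-1 (-0.55) and alpha-synuclein (0.40), with 2 arrays each. These pairs of strains were not tested on their own, and in the contrast of cat-1 with both other strains none of the 3 passed.

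Blank spots held a signal in both channels at 15 spots of cat-1 replicate 1, 18 of replicate 2 and 18 of replicate 3. They came from 6 wells, with 15 spots lit on all 3 arrays. Their median signal in the mutant channel was 0.590, 0.566 and 0.907 MU (scanner units with the prefix mega) on replicates 1, 2 and 3, beside 0.599, 0.750 and 1.24 MU for C. elegans spots with a signal. In the N2 channel it was 0.723, 0.608 and 1.43 MU, above the 0.377, 0.499 and 0.950 MU of C. elegans spots with a signal. Their part in the microRNA values was not tested.

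The authors' deposited table gives cat-1 replicate 4 a log2 ratio at 29 spots for which the scanner file of that replicate gives none.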

How the results depend on the processing

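The cat-1 comparison with N2 gave 4 calls, and its count depended on the spread and on single arrays. limma gave 0 calls with a loess span of 0.7 (2 with an unadjusted p under 0.05), 0 with 1 spread over all strains (4 unadjusted), and the plain test per microRNA gave 0 (1 unadjusted). Scale normalization between arrays gave 2. Leaving out replicates gave 0 to 1 calls: 0 without replicate 1 (7 unadjusted), 0 without replicate 2 (2 unadjusted) and 1, miR-58, without replicate 3. Without normalization within the array there were 22, all higher, as the median of the tested microRNAs moved to 0.75, against 0.04; lin-4 then stood at 0.99 and miR-46 at 0.89. The deposited table gave 7 calls as it stands and 7 centred on the median, with all 4 calls among them in both. The other alternatives gave 3 to 5 calls, and those that demanded more spots or arrays, or weighted spots, shared 1 of the 4, miR-58. miR-58 passed in 18 of 23 alternatives and ranged from 0.73 to 1.40. miR-241 passed in 12 of 18, miR-72 in 12 of 18 and miR-71 in 11 of 18, and these 3 had no value where 2 spots or 3 arrays were required in scanner values. miR-64 and miR-65 passed in 6 of 23 each. The cause of the lost calls was not tested.

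Same-numbered arrays of different strains did not deviate together (1 of 10 pairs correlated above 0.1), so the numbers were not taken to pair the arrays. These correlations ranged from -0.78, for replicate 1 of cat-1 and of pdr-1 (14 microRNAs), to 0.11. Their median was -0.14, against 0.08 for pairs of other numbers. With the replicate block the contrast of cat-1 with the other strains had 0 calls (1 unadjusted), as without it, and the other alternatives of that contrast also had 0. With no background value per spot, the low signals have no measured floor.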

Other observations

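The ratio of blank spots lay below that of the microRNAs on each cat-1 array. Their median unnormalized log2 ratio of mutant over N2 was -0.29, -0.34 and -0.60 on replicates 1, 2 and 3, beside 0.88, 0.79 and 0.17 for C. elegans spots.

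In the authors' deposited table, miR-236 of cat-1 replicate 4 gave 0.89 and 1.32 at its 2 spots, and miR-1 gave -0.74, -0.69 and -2.79 at its 3 spots, so that its mean of -1.41 rests largely on 1 spot. These microRNAs were chosen after their values were seen.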
